A study of Mus musculus with 2 samples.

Results

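The 6 mouse Iroquois genes (Irx1 to Irx6) were followed in total RNA of embryonic limb. Their rows were found by symbol, through the Ensembl gene identifier without its version, among the 43346 Ensembl rows of each gene table, and 13 transcript rows belong to them. Limb tissue of B6NCrl embryos of both sexes, at embryonic day 10.5, was pooled from 69 embryos for replicate 1 and from 51 embryos for replicate 2. Both pools form a single group with no treatment, mutation or control, and each was made into 1 library from 10 ng of RNA longer than 200 nt. The labels do not say whether forelimb, hindlimb or both were taken. Limb genes were present in both pools: the forelimb factor Tbx5 stood at 28.81 and 26.44 TPM, the hindlimb factor Tbx4 at 19.66 and 41.14 TPM and the hindlimb factor Pitx1 at 64.98 and 126.52 TPM (TPM is a length-normalised abundance). The Ensembl rows held 38932221 and 42465744 rounded counts. The comparison the data allow is therefore between the 2 Iroquois clusters, within each pool and then between the pools.

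Iroquois genes encode transcription factors of the TALE class, whose homeodomain carries an extra loop between its first and its second helix. They lie in 2 clusters that arose by duplication: Irx1, Irx2 and Irx4 on one chromosome, and Irx3, Irx5 and Irx6 on another, with Irx1 matching Irx3, Irx2 matching Irx5 and Irx4 matching Irx6. In mice, Irx3 and Irx5 act together in early patterning of the anterior hindlimb skeleton, Irx1 and Irx2 are known from digit primordia, Irx4 from the heart ventricle and Irx6 from retinal bipolar cells.

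The Irx1/2/4 cluster spanned 1311.69 kb of chromosome 13 and the Irx3/5/6 cluster 882.432 kb of chromosome 8 (GRCm38, the assembly of mm10, with gene positions from GENCODE M21). Irx1 (ENSMUSG00000060969.8) lay on the minus strand from 71957921 to 71963723. Irx2 (ENSMUSG00000001504.10, 72628820 to 72634198) and Irx4 (ENSMUSG00000021604.11, 73260479 to 73269608) lay on the plus strand. Irx3 (ENSMUSG00000031734.12) lay on the minus strand from 91798525 to 91802067. Irx5 (ENSMUSG00000031737.10, 92357625 to 92376286) and Irx6 (ENSMUSG00000031738.10, 92674288 to 92680956) lay on the plus strand. In both clusters the first gene thus pointed away from the other two. The gaps between genes were 665.096 kb from Irx1 to Irx2, 626.28 kb from Irx2 to Irx4, 555.557 kb from Irx3 to Irx5 and 298.001 kb from Irx5 to Irx6.

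The homeobox is the part that all 6 genes share, and it is shown so that the members of the 2 clusters can be compared. Each homeobox had 189 bases and lay within 1 coding exon: exon 2 of Irx1, Irx2, Irx3 and Irx5, exon 5 of Irx4 and exon 4 of Irx6. The sequences, from GENCODE M21 transcripts, are in coding direction, 5′ to 3′, and capitals mark the 49 positions at which the 6 genes are not all alike. The positions are 13:71959995-71960183 for Irx1, 13:72630661-72630849 for Irx2, 8:91800499-91800687 for Irx3, 13:73267520-73267708 for Irx4, 8:92359624-92359812 for Irx5 and 8:92677233-92677421 for Irx6.
Irx1: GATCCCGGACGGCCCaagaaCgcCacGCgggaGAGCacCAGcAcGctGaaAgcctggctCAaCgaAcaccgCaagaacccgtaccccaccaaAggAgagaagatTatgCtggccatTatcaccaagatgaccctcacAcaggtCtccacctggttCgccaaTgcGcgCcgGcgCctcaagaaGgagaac
Irx2: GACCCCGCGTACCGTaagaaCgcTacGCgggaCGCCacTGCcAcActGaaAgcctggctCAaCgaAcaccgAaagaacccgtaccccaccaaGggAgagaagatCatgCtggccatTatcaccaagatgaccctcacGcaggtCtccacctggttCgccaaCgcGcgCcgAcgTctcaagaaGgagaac
Irx3: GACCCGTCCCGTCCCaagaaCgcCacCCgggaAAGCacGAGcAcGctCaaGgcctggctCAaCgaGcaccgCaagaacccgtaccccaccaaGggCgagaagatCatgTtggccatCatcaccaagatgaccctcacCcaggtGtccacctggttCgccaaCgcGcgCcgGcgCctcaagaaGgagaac
Irx4: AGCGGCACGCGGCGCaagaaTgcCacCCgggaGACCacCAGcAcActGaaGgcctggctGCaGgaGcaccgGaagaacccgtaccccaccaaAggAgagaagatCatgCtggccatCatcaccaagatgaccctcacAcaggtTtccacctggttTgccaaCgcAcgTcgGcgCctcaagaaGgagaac
Irx5: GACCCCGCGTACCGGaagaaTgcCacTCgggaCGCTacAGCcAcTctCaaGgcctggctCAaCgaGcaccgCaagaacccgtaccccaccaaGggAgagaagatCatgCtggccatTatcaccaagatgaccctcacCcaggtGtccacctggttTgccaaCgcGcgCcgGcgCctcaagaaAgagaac
Irx6: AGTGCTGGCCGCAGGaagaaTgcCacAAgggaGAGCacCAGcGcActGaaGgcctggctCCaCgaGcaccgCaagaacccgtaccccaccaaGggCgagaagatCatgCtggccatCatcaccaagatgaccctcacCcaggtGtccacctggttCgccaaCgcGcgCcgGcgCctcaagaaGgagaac

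The 6 sequences were alike at 140 of 189 positions (74.1%), and 31 of the 49 differing positions were the third base of a codon. The first 15 bases held the densest block of differences, where every position differed in at least 1 gene. Irx2 and Irx5 were the closest pair, at 172 identical bases (91.0%), followed by Irx1 and Irx3 at 169 (89.4%). The closest match of Irx4 was Irx6, at 166 bases (87.8%), although Irx6 itself was closer to Irx3, at 168 (88.9%). The least alike pairs, Irx2 with Irx4 and Irx2 with Irx6, shared 157 bases (83.1%). Across the whole transcripts the longest identical run was 88 bases, between Irx3 and Irx6, and the next was 65, between Irx2 and Irx5. Reads inside such runs could be shared between genes, and how the deposited estimate divided them was not tested.

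Expression of the family came mostly from the chromosome 8 cluster. Levels are in TPM, so that genes of unequal length can be compared. Summed over its members, the Irx3/5/6 cluster stood at 39.9 TPM in replicate 1 and 41.6 TPM in replicate 2, and the Irx1/2/4 cluster at 3.19 and 5.04 TPM. The chromosome 8 cluster was thus 12.5-fold higher in replicate 1 and 8.24-fold higher in replicate 2, a mean log2 ratio of 3.34 ± 0.42 (SD, n = 2). It made up 92.6% and 89.2% of the family's summed level. The summed level was higher for the chromosome 8 cluster in both pools, but single members overlapped: Irx6 stood below Irx2 and Irx4 in each. With 2 pools the smallest p of an exact two-sided sign-flip test is 0.5, and none is printed. Fewer cells of a type and less RNA per cell cannot be told apart in whole tissue.

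**Figure D1:**
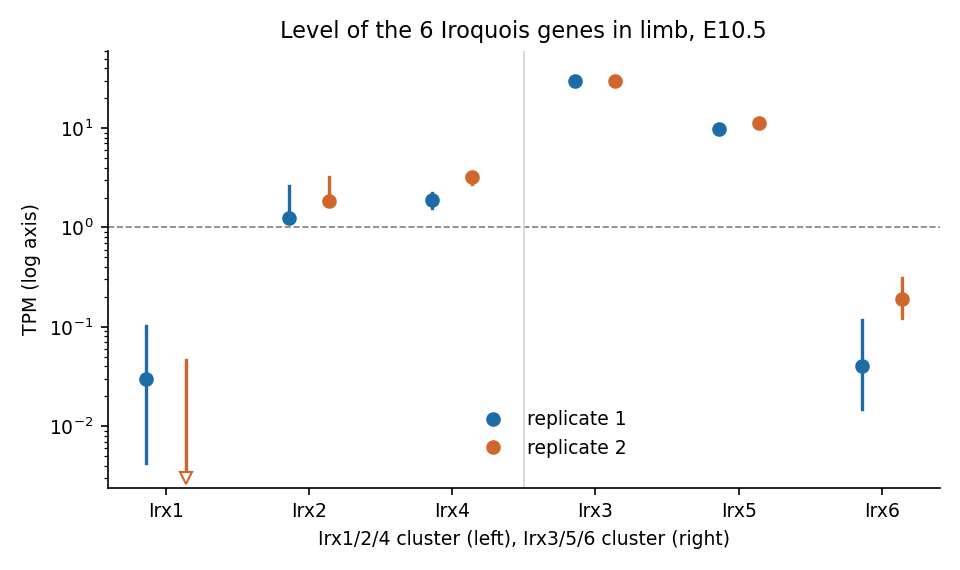
TPM of each Iroquois gene on a log axis. Points are the deposited TPM of replicate 1 (blue) and replicate 2 (orange), and bars are the interval bounds deposited with each value. The open triangle is a value of 0, drawn at the foot of the axis, and the dashed line marks 1 TPM. Irx3 stood at 30.0 and 30.1 TPM, and Irx1 and Irx6 stood below the dashed line.

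Irx3 was the leading member. It stood at 30.04 TPM in replicate 1 (interval 28.1 to 30.7, 2000.85 expected counts) and 30.08 TPM in replicate 2 (28.2 to 30.8, 2087.78 counts). Irx3 alone made up 69.8% and 64.6% of the family's summed level. Its level exceeded that of 77.5% of protein-coding genes, and it lay above the median of 21.3 TPM over the protein-coding genes at 1 TPM or more in both pools.

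Irx5, which acts with Irx3 in the hindlimb, came second at 9.77 TPM (8.84 to 10.4, 600 counts) and 11.28 TPM (10.3 to 11.9, 722 counts). Irx3 exceeded it 3.07-fold in replicate 1 and 2.67-fold in replicate 2, with intervals apart in both. Irx5 exceeded 62.7% of protein-coding genes.

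Irx4 was the highest member of the other cluster, at 1.91 TPM (1.56 to 2.24, 120 counts) and 3.20 TPM (2.73 to 3.58, 212 counts). Irx2 followed at 1.25 TPM (1.24 to 2.64, 74 counts) and 1.84 TPM (1.80 to 3.22, 116 counts). The TPM of Irx2 lay almost at the lower bound of its own interval, and the posterior mean TPM deposited beside it was 1.90 and 2.47. The intervals of Irx4 and Irx2 overlapped in both pools, so these neighbours in the order were not separated. By their means over both pools, 2.56 and 1.55 TPM, both were below the median of all protein-coding genes, 2.76 TPM, although Irx4 was above it in replicate 2.

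Irx6 and Irx1 were close to absent. Irx6, on chromosome 8, had 3 counts (95% exact Poisson interval 0.619 to 8.77) and 17.02 counts (9.90 to 27.2), or 0.04 and 0.19 TPM. Irx1 had 2 counts (0.242 to 7.22), or 0.03 TPM, in replicate 1 and 0 counts in replicate 2, where 0 counts allow a level of up to 0.0475 TPM (3 counts). The deposited TPM intervals of these genes overlapped in replicate 1 and were apart in replicate 2. The counting intervals, Poisson here and binomial below, reflect counting error alone: without molecular identifiers, reads are not independent molecules.

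The order was Irx3, Irx5, Irx4, Irx2, Irx6, Irx1. Of the 15 pairs of members, 13 had deposited intervals that were apart in the same direction in both pools, the exceptions being Irx4 with Irx2 and Irx6 with Irx1. The share of such pairs among other genes was not computed, so this count describes the order of the members only. At 1 TPM or more in both pools were 4 of the 6 genes, where 55.2% of protein-coding genes reached that level. Each cluster thus held 1 member near 0, the chromosome 8 cluster at its far end and the chromosome 13 cluster at its first gene.

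Each gene was then set beside its match in the other cluster. The ratio of Irx3 to Irx1 was 911 in replicate 1 (95% exact binomial counting interval 252 to 7525), and in replicate 2, where Irx1 had no counts, Irx3 was at least 633-fold higher (floor of 3 counts in that library). Irx5 exceeded Irx2 7.79-fold (6.11 to 10.1) and 6.13-fold (5.03 to 7.52). By posterior mean TPM, an alternative chosen after seeing the data, that ratio was 5.04 and 4.48, below both counting intervals, and the ratio of Irx3 to Irx1 in replicate 1 was 589. The third match ran the other way: Irx4, on chromosome 13, exceeded Irx6 46.4-fold (15.5 to 228) in replicate 1 and 17.1-fold (10.4 to 29.9) in replicate 2. The chromosome 8 gene was therefore the higher one in 2 of 3 matches, in both pools, and the lower one in the third. These ratios are of expected counts per effective length, and no p is given for them.

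Transcript rows showed 1 main form for Irx3 and Irx5 and no settled shares for Irx2 and Irx4. Irx3-202, whose annotated 5′ end lies farther upstream than that of Irx3-201, took 97.2% and 98.0% of the gene's TPM, with 1945.01 and 2044.91 counts. Irx3-201 took 2.78% and 2.04%. Irx5 had only the row Irx5-201. Of the 5 Irx2 rows, the full-length coding form Irx2-201 took 81.5% and 84.8%, and the retained-intron form Irx2-202 took the other 18.5% and 15.2% on 5.11 and 6.45 counts. The 3 short Irx2 rows (Irx2-203, Irx2-204 and Irx2-205) had 0 counts in both pools. The posterior mean shares deposited beside these differed: 49.9% and 59.5% for Irx2-201, and 35.6% and 27.2% for the 3 short rows together. The share of Irx2-201 is therefore not settled by these tables.

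Irx4-202 took 66.8% in replicate 1 and 50.4% in replicate 2, and Irx4-201 took 33.2% and 49.6%. The level of Irx4-201 was 0.64 TPM (interval 0.177 to 1.30) and 1.59 TPM (0.841 to 2.68), and that of Irx4-202 was 1.28 TPM (0.513 to 1.81) and 1.61 TPM (0.398 to 2.40). These intervals overlapped in each pool, so the pools do not show which Irx4 form was the larger. For Irx6, replicate 1 placed its 3 counts on Irx6-202 and replicate 2 its 17.02 counts on Irx6-201, too few reads to rank the forms. The single row of Irx1 held its 2 counts.

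**Figure D2:**
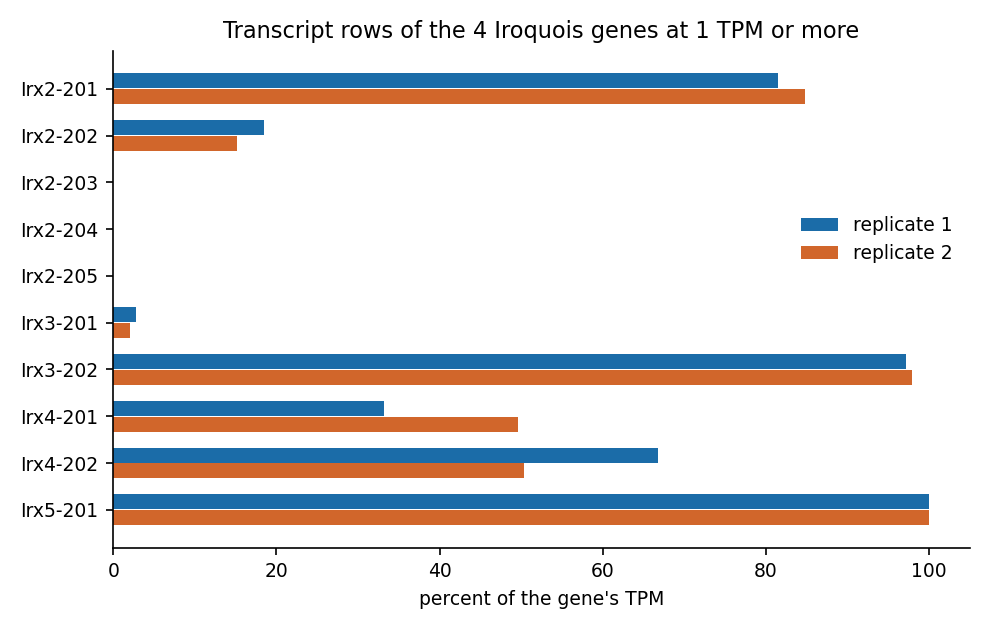
Percent of each gene's deposited TPM taken by each transcript row, for the 4 Iroquois genes at 1 TPM or more in both pools (replicate 1 blue, replicate 2 orange). Irx3-202 and Irx5-201 took nearly all of their genes, while Irx4 was divided at 66.8% and 33.2% in replicate 1 and at 50.4% and 49.6% in replicate 2.

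Replicate 2 held relatively more reads of the chromosome 13 cluster. Between the pools, counts were compared after TMM scaling (a correction for library size and composition), as log2 of replicate 2 over replicate 1 with a 95% exact binomial counting interval. Irx4 had 120 counts in replicate 1 and 212 in replicate 2, a difference of 0.62 (0.29 to 0.96). Irx2 had 74 and 116 counts, a difference of 0.45 (0.02 to 0.89). Both were higher in replicate 2 under every scaling tried (TMM, DESeq2 size factors, total counts, TPM and spike-in counts). These scalings moved the median protein-coding gene by -0.0092 to 0.25 relative to TMM, so their likeness is not separate support. The sum of Irx2, Irx4 and Irx1 differed by 0.55 (0.29 to 0.81).

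Of the chromosome 8 genes, Irx3 and Irx5 lay nearer to 0, and Irx6 did not. Irx3 differed by -0.14 (-0.23 to -0.05), a direction that turned with TPM (0.00) and with spike-in scaling (0.12). Irx5 differed by 0.07 (-0.09 to 0.23). Irx6, with 3 and 17.02 counts, was 4.94-fold higher in replicate 2 with a wide counting interval of 1.43 to 26.3. Under TPM the median protein-coding gene moved by 0.12 relative to TMM, and under spike-in scaling by 0.25.

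The spread over all genes gives the scale for these differences. Over the 11521 protein-coding genes whose mean count reached 100, the central 95% of log2 differences ran from -0.48 to 0.77, with a median absolute difference of 0.16. Members past that count were Irx3, Irx4 and Irx5, and 0 of these 3 were at least 2-fold apart, where 1.32% of these genes lay 2-fold or more above replicate 1 and 0.312% lay as far below it. The counting interval lay above equality for Irx4 and below it for Irx3, as it did for 30.6% and 33.2% of the tested genes. A share of that size says nothing particular about the members. Irx2 (mean count 95), Irx6 (10.01) and Irx1 (1) did not pass the filter. Pool, library and any batch cannot be told apart, and no p is given.

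**Figure D3:**
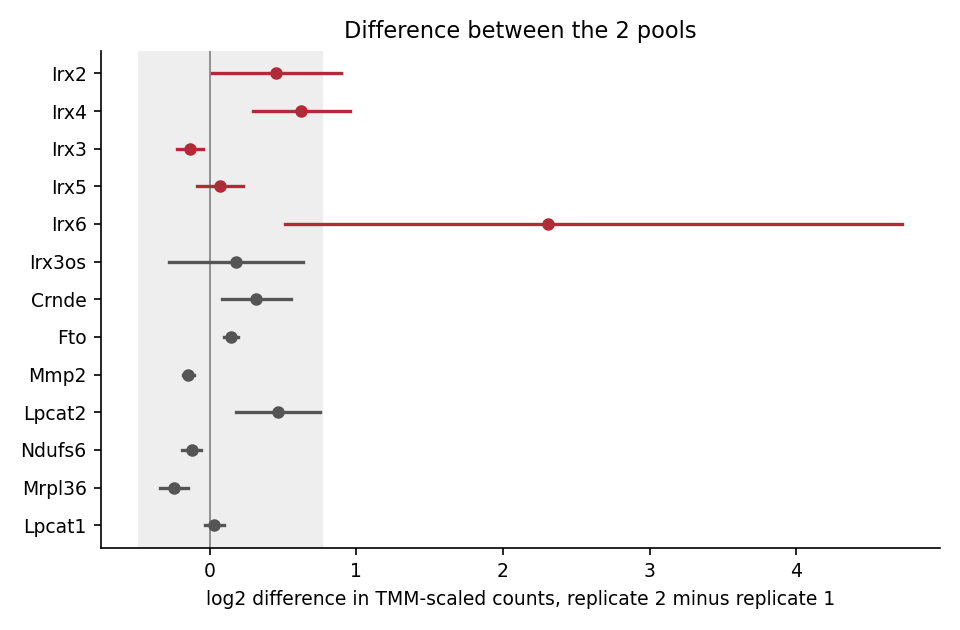
Log2 difference in TMM-scaled counts, replicate 2 minus replicate 1, for 5 Iroquois genes (red) and 8 annotated neighbours of the clusters (grey), with 95% exact binomial counting intervals. The grey band is the central 95% of 11521 protein-coding genes, from -0.48 to 0.77. The differences of Irx2, Irx3, Irx4 and Irx5 lie inside the band, and that of Irx6 lies outside it on few counts. Irx1 has no value, since both pools were at or under 3 counts.

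The Irx3/5/6 cluster had transcribed neighbours close to its high members. Irx3os, annotated as antisense to Irx3, overlapped it by 1653 bases and stood at 1.5 and 1.8 TPM (74.15 and 96.2 counts), against which Irx3 was 20.0-fold and 16.7-fold higher. Only 124 exonic bases are common to both genes, 3.33% of the exonic bases of Irx3os. Whether counting used strand is not given in the sources used here, so reads in that overlap cannot be assigned. Crnde, a noncoding RNA gene on the opposite strand whose 5′ end lies 1504 bases from the annotated start of Irx5, stood at 15.2 TPM (252 counts) and 19.7 TPM (360 counts). It exceeded Irx5 1.55-fold and 1.74-fold. Between Irx3 and Irx6 there were 7 measured neighbours, and Irx3os and Crnde were those at 1 TPM or more in both pools. The others, 4 lincRNA genes and a small nuclear RNA gene, had at most 10 counts in a pool.

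Beyond its ends the same cluster had 5 measured neighbours, of which Fto and Mmp2 were higher than Irx3 and the other 3 lower than Irx5. Fto, a demethylase gene whose introns hold regulatory elements that contact Irx3, stood at 68.9 and 83.6 TPM. Mmp2, a matrix metalloproteinase gene past Irx6, stood at 156 and 155 TPM, and the acyltransferase gene Lpcat2 at 4.79 and 6.35. Gm3235, annotated as antisense, stood at 2.14 and 1.51 TPM and the pseudogene Gm3272 at 1.32 and 1.48. Irx6, at 0.04 and 0.19 TPM, thus lay between Irx5 and Mmp2, both of which were higher in each pool.

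The Irx1/2/4 cluster had fewer measured neighbours, and fewer annotated ones. Within 200 kb, 6 of 17 annotated neighbours had a row, against 12 of 26 at the Irx3/5/6 cluster, so most annotated neighbours were not measured. Of 6 with a row within 200 kb, 2 lay inside the cluster, the pseudogene Rpl9-ps4 (1.42 and 2.66 TPM) and the lincRNA gene Gm20554, whose 5′ end lies 255 bases from Irx2 on the opposite strand and which had 0 counts in both pools. Past Irx4, the complex I gene Ndufs6 stood at 332 and 335 TPM, the mitochondrial ribosomal gene Mrpl36 at 83.6 and 77.9, and Lpcat1 at 42.03 and 46.65. The pseudogene Gm10263, also past Irx4, stood at 3.48 and 2.32 TPM.

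**Figure D4:**
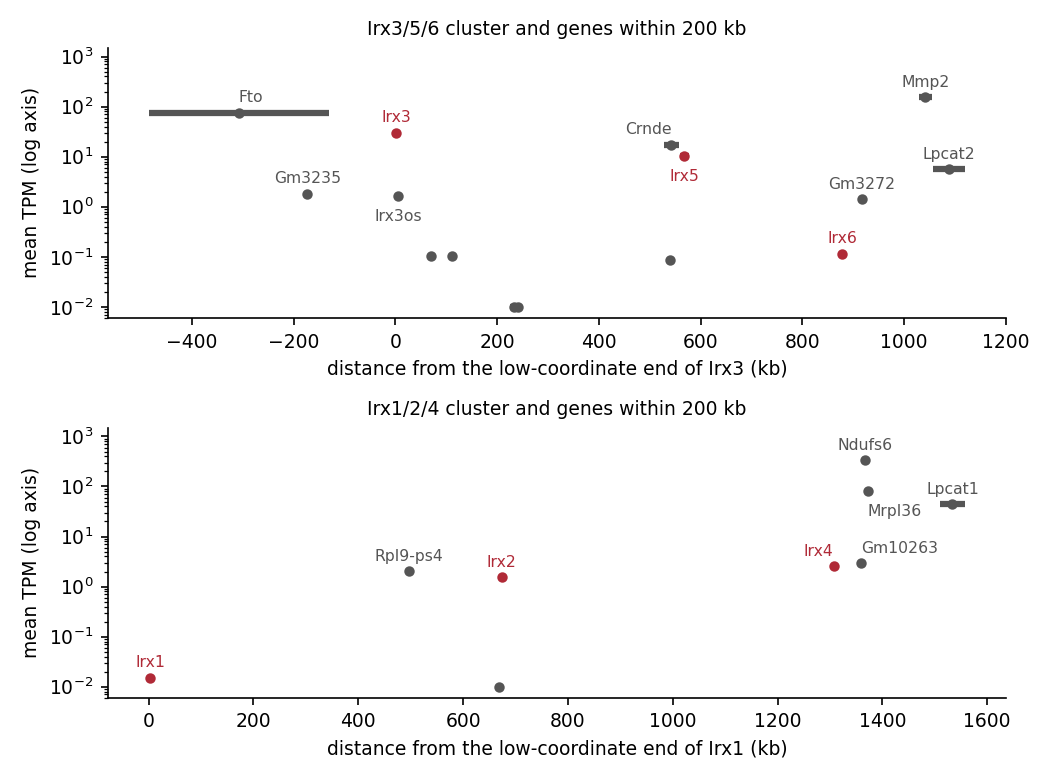
Mean TPM over both pools (log axis) of measured genes in and within 200 kb of each cluster, by distance in kb from the low-coordinate end of Irx3 (top) or Irx1 (bottom). Bars span the gene bodies, Iroquois genes are red, genes under 1 TPM other than Iroquois genes are unlabelled and values under 0.01 are drawn at 0.01. Irx3 and Irx5 stand above the other Iroquois genes, with Crnde beside Irx5.

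Among 18 TALE homeobox genes, Irx3 ranked sixth and Irx5 eleventh, and the other 4 Iroquois genes took the last places. All 12 other TALE genes were at 1 TPM or more in both pools, where 55.2% of protein-coding genes reached that level. The median of the 12 was 27.8 TPM. The highest were the repressor gene Tgif1 at 99.5 ± 16.6 TPM (SD, n = 2, as below), the proximal limb gene Meis1 at 95.8 ± 6.63 and Tgif2 at 89.4 ± 2.67. Irx3, at 30.1 ± 0.0283 TPM, stood beside Pknox1 at 29.7 ± 0.389, a Pbx partner gene, and Irx5, at 10.5 ± 1.07, stood between Meis3 at 16.1 ± 1.73 and the tendon regulator gene Mkx at 8.73 ± 4.21. The lowest of the 12, Pknox2, stood at 7.36 ± 3.44 TPM, above Irx4 at 2.56 ± 0.912. Of the 12, 0 were at least 2-fold apart between pools, where 1.32% of all tested genes lay that far above replicate 1 and 0.312% that far below it. Their median log2 difference was 0.01, against 0.00 for all tested genes.

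Genes of a fixed list for anterior-posterior patterning and limb type were mostly present. Of 16, 14 were at 1 TPM or more in both pools, where 55.2% of protein-coding genes reached that level. The median of the 16 was 11.6 TPM. The hedgehog effector Gli3, which acts with Irx3 and Irx5 in mouse limb patterning, stood at 51.3 ± 4.03 TPM, and Sall4, a zinc finger gene acting in the same process, at 33.4 ± 15.6. The posterior signal Shh stood at 0.880 ± 0.269 TPM and the posterior factor Hand2 at 8.63 ± 0.141, below Irx3. Among the 15 whose mean count reached 100, Sall4 was the 1 gene at least 2-fold lower in replicate 2, at -1.25 (-1.32 to -1.18), and Pax9 the 1 at least 2-fold higher, at 2.10 (1.58 to 2.65). Over all tested genes, 0.312% were that far lower and 1.32% that far higher. The differences of Irx3 and Irx5, given above, were smaller in size than those of Sall4 and Pax9. The hindlimb genes Tbx4 and Pitx1 differed by 0.94 (0.86 to 1.03) and 0.79 (0.73 to 0.85), and the forelimb gene Tbx5 by -0.26 (-0.34 to -0.19). The part of the hindlimb share in the Iroquois values was not tested.

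Markers of other places where Iroquois genes are known were read beside the members. Of 9 neural tube genes, 0 were at 1 TPM, their summed level was 0.49 TPM in replicate 1 and 0.32 in replicate 2, and the defining genes Sox1, Sox2 and Olig2 had at most 9 counts in a pool. The TPM of Pax6, 0.13 and 0.07, lay below its own deposited interval (0.66 to 1.56 and 0.59 to 1.45). The summed TPM was below the level of Irx3, Irx5, Irx4 or Irx2 in either pool, but the lower bound of Pax6 alone exceeded that sum. The part of neural tissue in the Iroquois values was not tested. Of 10 genes listed for the heart ventricle, 6 were at 1 TPM or more in both pools, near the share of 55.2% over all protein-coding genes. The summed level of the 10 was 23.1 and 26.6 TPM. The highest in replicate 1 were Hand1 (7.11 and 2.79 TPM) and Myl7 (6.72 and 5.72 TPM). The ventricular light chain gene Myl2 stood at 2.54 and 2.65 TPM, the natriuretic peptide gene Nppa at 1.84 and 6.48, the ventricular myosin gene Myh7 at 0.85 and 1.75, and the heart factor Nkx2-5 had 3 and 4 counts. The TPM of Myl2 lay below its own deposited interval in both pools (3.08 to 6.11 and 3.14 to 6.09). So did that of Myh6 in both pools and that of Tnnt2 in replicate 1. By the TMM-scaled difference 6 of the 10 were higher in replicate 2 and 4 were lower: Myl2 (-0.09), Myl7 (-0.37), Hand1 (-1.47) and Tbx20 (-2.20). Only 3 of the 10 reached a mean count of 100, so the tally rests largely on few counts. Of these 3, 1 was at least 2-fold lower, as were 0.312% of all tested genes. The part of heart tissue in the level of Irx4 was not tested.

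Cartilage and joint genes were higher in replicate 2, with a median log2 difference of 0.84 over the 7 whose mean count reached 100. Their summed level was 197 TPM in replicate 1 and 429 TPM in replicate 2. At 1 TPM or more in both pools were 7 of 10, where 55.2% of protein-coding genes reached that level. None of the 10 was lower in replicate 2 by the TMM-scaled difference. The joint gene Gdf5 differed by 2.43 (2.06 to 2.82), the cartilage factor Sox9 by 0.86 (0.82 to 0.90) and the cartilage collagen Col2a1 by 1.18 (1.14 to 1.22). Irx2 and Irx4 were higher in the same pool, by 0.45 and 0.62, and their tie to cartilage content was not tested. Irx1, which is known from digit primordia, had 2 counts in replicate 1 and 0 in replicate 2, too few to give a direction. The 8 surface ectoderm genes were at 1 TPM or more in both pools, against 55.2% of all protein-coding genes, with summed levels of 260 and 246 TPM. These 8 moved in both directions, from Krt14 at 2.03 (1.81 to 2.25) to Krt18 at -0.70 (-0.81 to -0.58).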

How the data were processed

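Total RNA-seq of 2 pools was read from deposited gene and transcript tables. Per the sample text files, they were quantified on mm10 with GENCODE M4, each library on its own. Aligner and quantifier: not given in the sources used here. The deposited expected counts are estimated reads per row, and the deposited TPM are scaled by the authors over all rows, spike-ins included. The level of the deposited TPM interval bounds is not given. The deposited transcript tables also give the percent of a gene's TPM in each transcript. The deposited FPKM were not used.

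Expected counts summed to 40509300 and 43983000 (to 6 digits), of which spike-ins took 3.89% and 3.45%. Rows without an Ensembl identifier stayed out of library sizes. Names and positions came from GENCODE M21, which named 42462 of 43346 Ensembl rows. Rounded counts were scaled with edgeR 4.0.16 (TMM) and DESeq2 1.42.0 size factors in R 4.3.3. The remaining work ran in Python 3.11.15 with scipy 1.17.1, pandas 2.3.3, matplotlib 3.10.9 and numpy 2.4.6. Log2 differences had no prior count, and their code was tested on simulated data. The counting intervals (Poisson and binomial) are 95% and exact, unlike the deposited TPM bounds.

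Homeoboxes were found in the translated coding sequence by the residues that mark the third helix. Members, gene lists and named genes (all members, annotated genes within 200 kb, listed genes, and the 3 genes nearest in level) were chosen with earlier results of these data known. No group contrast exists, so nothing was tested.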

Additional observations from a re-analysis of the deposited data

How the results depend on the processing

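Other settings kept the order of the clusters and moved several sizes. With posterior mean TPM, Irx2 stood at 2.19 and Irx3 at 29.5 TPM, the Irx2-201 share was 54.7% and the Irx3-202 share 96.8%, and the ratio of Irx5 to Irx2 was 5.04 and 4.48 (chosen after seeing the data). As CPM per kb over Ensembl rows, a scale smaller by construction, Irx2, Irx3 and Irx5 stood at 1.03, 20.1 and 7.03. As a difference of mean log2(TPM + 1), the cluster log2 ratio of 3.34 became 1.82. The difference of Irx3 reversed to 0.0019 with log2(TPM + 1), to 0.0019 with log2(TPM + 0.1) and to 0.12 with spike-in scaling. Relative to TMM, the median protein-coding gene moved by 0.12 under TPM and by 0.25 under spike-in scaling. What made the scales differ was not tested. The Irx5 difference was 0.32 with spike-in scaling, and that of Irx6 was 0.19 with log2(TPM + 1). At a minimum of 2 TPM, 2 members passed. Without a count filter, 989 and 570 protein-coding genes were at least 2-fold higher and lower in replicate 2, and at a mean count of 10 or more 584 and 186, against 152 and 36.

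With 1 pool left out, the cluster log2 ratio ran from 3.04 to 3.64, separated pairs from 13 to 14, and members at 1 TPM stayed at 4. No paired analysis was possible because there is a single group. Depth limits Irx1 and Irx6, whose forms and differences rest on at most 17.02 counts.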

Other observations

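The protein-coding genes nearest in level to the 4 expressed members, by Euclidean distance over log2(TPM + 1) in the 2 pools among 21473 genes, are given here by distance. For Irx3 they were Vps53 (distance 0.0145), Ints6l (0.0158) and Rpap3 (0.0166). For Irx5 they were Hdhd3 (0.0102), Slc33a1 (0.0120) and AW554918 (0.0157). For Irx4 they were the nuclear receptor gene Rora (0.0034), the forkhead gene Foxo3 (0.0103) and Efcab1 (0.0120), and for Irx2 they were Ap3m2 (0.0166), Hspa12a (0.0245) and Prr36 (0.0321). With 2 pools, likeness says little more than that the levels were alike.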
